A study of Homo sapiens with 6 samples.

Results

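The genes of G2 and mitosis build the machinery that carries a cell with replicated DNA through division. Here 30 of them were examined, chosen by symbol as mitotic kinases, kinesins, kinetochore and spindle proteins and activators of the anaphase-promoting complex (APC/C). The rule named genes and used no measured value, but earlier results of these data were known when it was made. All 30 were found once among the 12154 genes of the table. RNA-seq was available for 3 libraries of AS-tDR-007333-overexpressed cells (OE, labelled t-1 to t-3) and 3 libraries of NC cells (t-NC1 to t-NC3). AS-tDR-007333 is a tRNA-derived fragment of tRNA-Gly-GCC. The comparison asked which genes differ when the fragment is overexpressed.

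According to the labels, the OE libraries come from A549 cells that received a tRF plasmid and the NC libraries from A549 cells that received an empty vector, both with a lipid reagent. The study's methods instead describe PC9 cells, 48 h after transfection of the fragment or of NC. A549 and PC9 are both lung adenocarcinoma lines, so the 2 sources differ on the line and on what was transfected, and cells of a single line are the model in either case. Neither source says whether the libraries of a group were separate cultures. A p-value here therefore covers the spread among the libraries at hand, and this spread may be technical. The study's oligonucleotide list gives AS-tDR-007333 and its NC as RNAs of 28 bases each, shown here because they define the 2 groups in the methods.
OE, the AS-tDR-007333 fragment: gcauuggugguucagugguagaauucuu
NC, its control oligonucleotide: gagaauuuugauggccguucuguaugug

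A cell enters mitosis when cyclin B-CDK1 becomes active, and PLK1 and the Aurora kinases then drive centrosome maturation, spindle assembly and chromosome attachment. Kinetochores bind spindle microtubules, and the spindle checkpoint holds the APC/C in check until every chromosome is attached. The APC/C with CDC20 then marks securin and cyclin B for degradation, and the central spindle guides cytokinesis. The RNAs of these genes are low in G1 and high in G2 and mitosis, and their promoters commonly carry CCAAT boxes, bound by NF-Y, and a cell cycle genes homology region (CHR), bound by the MuvB core with B-MYB and FOXM1 or with the DREAM repressor. In a tumour cell population their summed RNA is widely used as a measure of proliferation.

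Windows of RefSeq genes (GRCh38.p14) were matched for 25 of the 30 genes, the others being AURKA, TPX2, UBE2C, BIRC5 and TTK, and the 250 bases before the start were searched on both strands. A CHR was taken as TTTGAA or TTCGAA, the second of which reads the same on both strands, and a CCAAT box as CCAAT. Matches may share letters, as 2 CCAAT boxes on opposite strands do in HMMR. A CHR lay in 15 of the 25 (60%), against 13.4% of 8966 genes tested for expression and 17.2% of all 27305 genes with a window. Within 100 bases of the start it lay in 12 of the 25 (48%), against 4.33% of the genes tested and 6.14% of all genes. At least 1 CCAAT box lay in 20 of the 25 (80%), against 41.5% of the genes tested and 37% of all genes, and both motifs lay in 13 (52%), against 5.42% and 6.24%. A match of letters is a description and not a bound site.

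The 4 genes printed next are CCNB2 and PLK1, which show the typical arrangement, and AURKB and HMMR, which differed most between OE and NC cells by unadjusted p. Each line holds the 150 bases before the start in GRCh38.p14, 5′ to 3′ on the gene's strand, and capitals mark CHR and CCAAT letters, with a CCAAT box on the other strand read as ATTGG.
CCNB2, chr15:59104996-59105145, plus strand: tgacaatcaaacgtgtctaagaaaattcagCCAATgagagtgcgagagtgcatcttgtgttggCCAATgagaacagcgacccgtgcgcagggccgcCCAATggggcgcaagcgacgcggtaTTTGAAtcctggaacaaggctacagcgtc
PLK1, chr16:23678739-23678888, plus strand: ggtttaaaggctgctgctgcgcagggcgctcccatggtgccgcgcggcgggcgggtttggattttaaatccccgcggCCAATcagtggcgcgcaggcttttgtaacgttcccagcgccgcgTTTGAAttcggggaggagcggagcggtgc
HMMR, chr5:163460482-163460631, plus strand: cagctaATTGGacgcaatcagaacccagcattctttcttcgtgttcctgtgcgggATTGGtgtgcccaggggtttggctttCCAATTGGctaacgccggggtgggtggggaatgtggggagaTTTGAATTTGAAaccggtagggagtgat
AURKB, chr17:8210250-8210399, minus strand: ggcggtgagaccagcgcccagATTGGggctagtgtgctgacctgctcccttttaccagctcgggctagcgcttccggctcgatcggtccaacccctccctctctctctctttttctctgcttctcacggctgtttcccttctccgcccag

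In CCNB2 and in PLK1 the CHR began at base -29, counted back from the start, and the nearest CCAAT box began at -54 in CCNB2 and at -73 in PLK1. HMMR carried 2 CHRs next to each other, beginning at -28 and -22. AURKB had a CCAAT box at -129 and no CHR letters in the 250 bases searched, in this window or in that of its other annotated start, and nothing about any factor follows from that. AURKB and HMMR thus differed in motif content, and no expression value was used in the search.

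FPKM, the unit of every level below, counts sequenced fragments per kilobase of gene, divided by the fragments mapped in that library, so levels of different genes can be set side by side. Each library summed to between 197324 and 202921 FPKM. The table holds no read counts and its low values show no whole-read steps, so depth is unknown. NC 1 lay farthest out on the first principal component (24.3% of the variance), at 18.01, so the main values are also given without it. NC 2 and NC 3 lay toward the other end, at -9.91 and -9.44. OE 1 to OE 3 lay in between, at -0.61, 0.42 and 1.53. All 6 epithelial markers were listed, at summed levels of 1593 to 1652 FPKM in OE cells and 1475 to 1639 FPKM in NC cells. The sum hides the spread of CDH1, which had 53.1, 69.2 and 69.7 FPKM in OE cells. In NC 1 to NC 3 it had 66.7, 35.3 and 34.6 FPKM. Of 4 lung lineage markers only NAPSA was listed, below 1 FPKM in every library, while NKX2-1, SFTPB and SFTPC were not listed. All 5 genes of NRF2 target enzymes (AKR1B10, AKR1C1, AKR1C2, AKR1C3 and NQO1) were listed. Their summed levels were 630.2 to 646.9 FPKM in OE cells and 634.2 to 641.9 FPKM in NC cells. Which line the cells came from was not tested with these values. Of 6 fibroblast markers only COL1A1 was listed, at 5.71 to 6.04 FPKM in OE cells and 5.09 to 6.10 FPKM in NC cells. Of 4 immune markers only CD68 was listed, at 12.0 to 17.0 FPKM in OE cells and 11.3 to 14.8 FPKM in NC cells, and of 3 endothelial markers 0 were listed. The part of other cells in the values of the mitotic genes was not tested.

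None of the 30 mitotic genes passed an adjusted p of 0.05 from limma between OE and NC cells. For most of the genes the OE and NC levels were close, with a median log2 fold change of 0.04 and a range of -0.28 to 0.31. Fold changes are differences in log2(FPKM + 1), and the added 1 shrinks them for genes of low level. AURKB, encoding the kinase of the chromosomal passenger complex, was the most clearly higher, at 1.28 times its NC level. HMMR, encoding a spindle protein that binds hyaluronan, was the most clearly lower, at 0.818 times its NC level. In bulk RNA a different share of cells in G2 or mitosis and a different amount of these RNAs per cell cannot be told apart.

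Over all genes tested, 7 of 11042 (0.0634%) passed an adjusted p of 0.05 in either direction, and 0 of the 30 mitotic genes did, the lowest adjusted p among them being 0.899 from limma. At an unadjusted p under 0.05, 1 of the 30 was higher and 1 was lower in OE cells, where 1.63% of all genes were higher and 1.98% were lower. The 3 OE values lay above all 3 NC values in 2 of the 30, AURKB and NUSAP1, and below them in 1, HMMR, where 3.58% of all genes lay above and 5.18% lay below. In 30 genes, counts this small were not distinguished from the shares of all genes. The Ballgown-style model is a fit per gene without pooling of the spread. It also has a library term, the sum of a library's log2 values below their upper quartile, which can shift the fold changes. This model also called 0 of the 30, and by unadjusted p it had 3 higher and 0 lower. The fold change was positive in 21 of the 30 (70%), against 45.0% of all genes tested, and the median was 0.04 against -0.01. The size of this lean depended on which library was left out, since the median was -0.000342 without NC 3 and 0.00657 without OE 3. It was 0.0336 without NC 1, 0.0488 without NC 2, 0.0375 without OE 2 and 0.0718 without OE 1.

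The intervals bound what these libraries can show. The 95% confidence interval of the log2 fold change lay within ±0.58, a 1.5-fold difference on this scale, for 29 of the 30 genes (96.7%), against 89.4% of all genes tested. The exception was BIRC5. The median SD within groups was 0.106 on the log2 scale for the 30 genes, against 0.098 for all genes, and their median level was 9.41 FPKM, against 6.30 FPKM. Summed over the 30 genes, OE cells had 337.2, 355.9 and 373.9 FPKM and NC cells had 346.5, 356.5 and 329.1 FPKM. The 2 groups overlapped in this sum, with a mean of 356 ± 18.3 FPKM in OE cells and 344 ± 13.8 FPKM in NC cells (SD, n = 3 each).

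**Figure D1:**
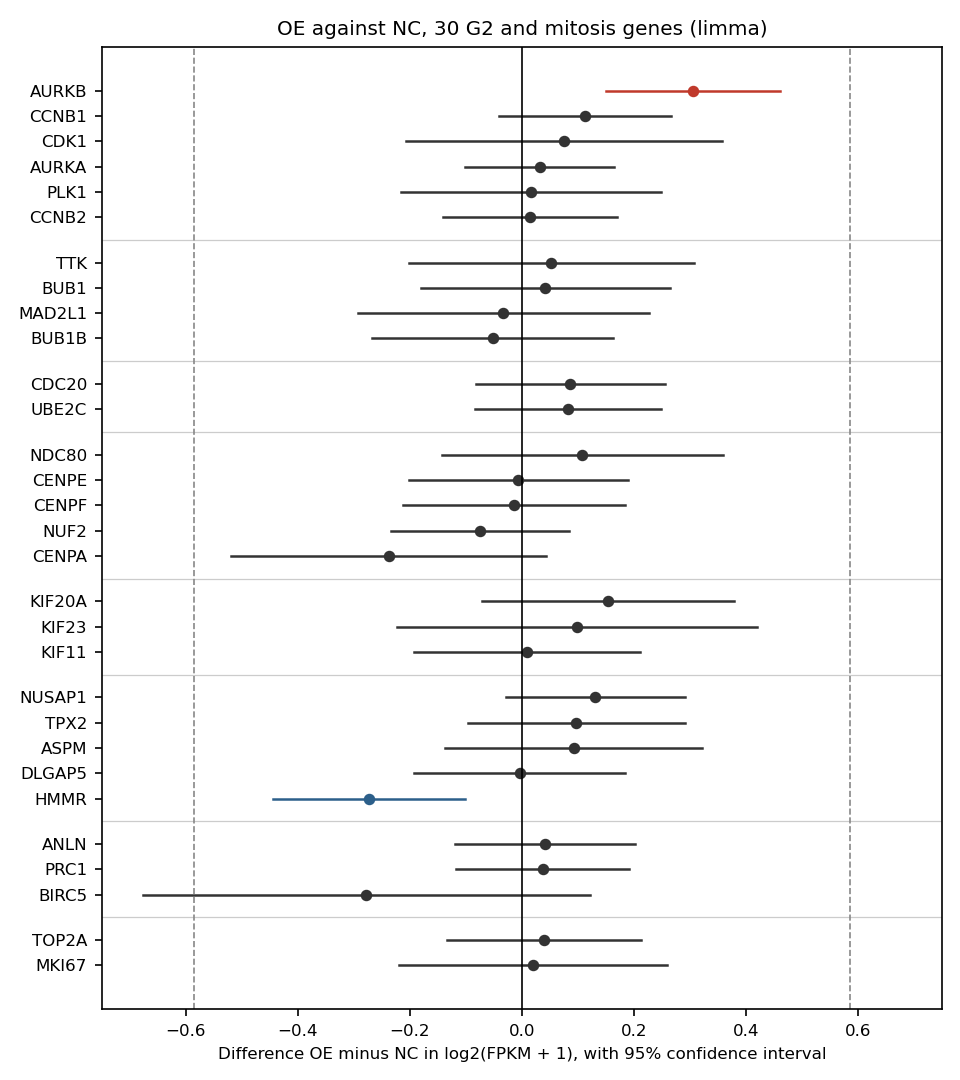
Log2 fold change of each of the 30 genes, OE minus NC in log2(FPKM + 1), from limma, with its 95% confidence interval, grouped by role. AURKB (0.31, red) and HMMR (-0.27, blue) are the genes with an unadjusted p under 0.05, the dashed lines mark a 1.5-fold difference, and only the interval of BIRC5 crosses one of them.

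Cyclin B-CDK1 and the mitotic kinases were considered first. CCNB1 encodes cyclin B1, the main activating partner of CDK1, and had 23.0, 24.5 and 24.3 FPKM in OE cells, against 20.9, 23.8 and 21.6 FPKM in NC cells. Of these, the OE 1 value lay below that of NC 2, so the groups overlapped. The log2 fold change of CCNB1 was 0.11 (unadjusted p = 0.125 from limma). It was 0.166 (unadjusted p = 0.035 from limma) without NC 2 and 0.0739 (unadjusted p = 0.273 from limma) without NC 1. CCNB2, encoding cyclin B2, had 9.50, 9.50 and 10.7 FPKM in OE cells and 9.39, 10.1 and 9.85 FPKM in NC cells. CDK1, the kinase itself, had 17.0, 14.4 and 16.0 FPKM in OE cells and 13.2, 17.7 and 14.1 FPKM in NC cells. Values of both overlapped between the 2 groups, with log2 fold changes of 0.01 for CCNB2 and 0.08 for CDK1. PLK1, the kinase of centrosome maturation and mitotic entry, had 6.31, 7.85 and 6.76 FPKM in OE cells and 7.63, 6.57 and 6.44 FPKM in NC cells. AURKA, the Aurora kinase of centrosomes and spindle poles, had 12.6, 13.9 and 13.8 FPKM in OE cells and 13.2, 13.2 and 13.0 FPKM in NC cells. All 6 genes of this group had positive fold changes, with a median of 0.05, and AURKB alone had OE values clear of its NC values.

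AURKB (ENSG00000178999.12_3, chr17:8108051-8113918 in GRCh37, minus strand) had 7.07, 7.95 and 7.14 FPKM in OE cells, against 5.92, 5.89 and 5.54 FPKM in NC cells. The lowest OE library lay above the highest NC library. The means were 7.39 ± 0.489 FPKM in OE cells and 5.78 ± 0.206 FPKM in NC cells (SD, n = 3 each). By limma, the log2 fold change was 0.31 (standard error 0.06, 95% confidence interval 0.15 to 0.46, unadjusted p = 0.00269, adjusted p = 0.899). This p ranked 33rd among all genes tested, and without NC 1 the fold change was 0.32 with an unadjusted p of 0.00584 from limma. The ratio of AURKA to AURKB was 1.79, 1.75 and 1.93 in OE cells and 2.23, 2.23 and 2.34 in NC cells. The ratio was lower in each OE library, while AURKA had a log2 fold change of 0.03.

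Among the 30 genes, BIRC5 is the other subunit of the passenger complex. It encodes survivin, which brings the complex to centromeres, and had 2.51, 3.13 and 4.59 FPKM in OE cells, against 4.37, 4.06 and 4.31 FPKM in NC cells. The OE libraries were widely spread, with OE 1 and OE 2 below and OE 3 above every NC library. Its log2 fold change was -0.28 (standard error 0.17, 95% confidence interval -0.68 to 0.12, unadjusted p = 0.141 from limma), and it was -0.46 (unadjusted p = 0.00362) without OE 3 and -0.13 (unadjusted p = 0.402) without OE 1. The ratio of AURKB to BIRC5 was 2.31 ± 0.665 in OE cells and 1.36 ± 0.0814 in NC cells (SD, n = 3 each). BIRC5 was the most variable of the 30 genes, with a highest value 1.83 times its lowest.

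**Figure D2:**
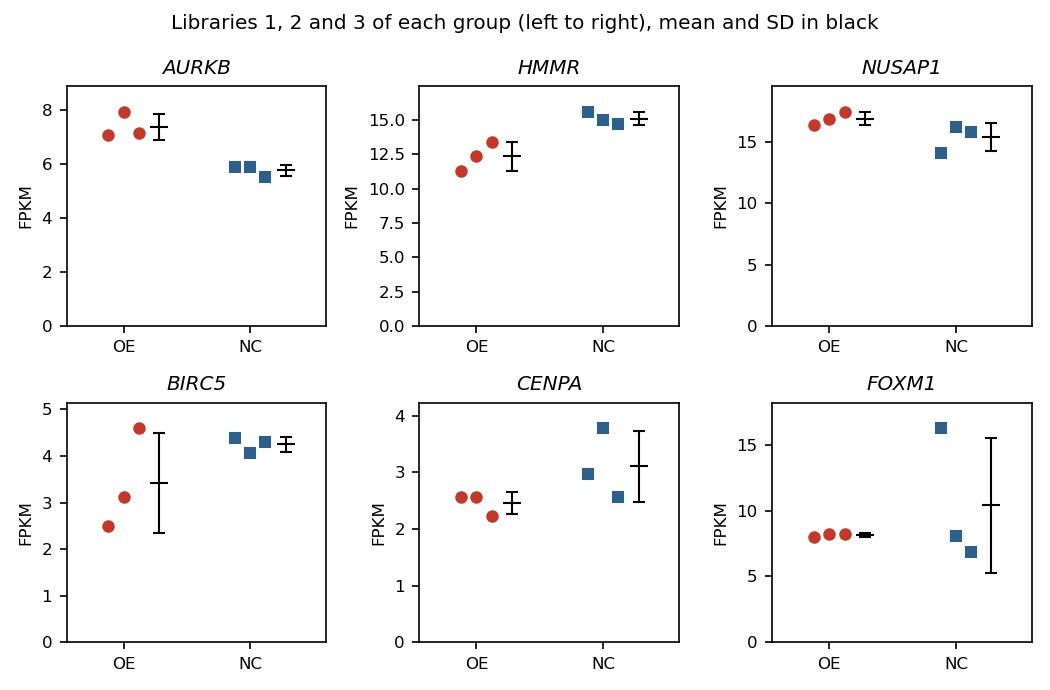
FPKM of AURKB, HMMR, NUSAP1, BIRC5, CENPA and FOXM1 in the 3 OE libraries (red circles) and the 3 NC libraries (blue squares), with the mean and SD of each group in black. OE and NC values do not overlap in the panels of AURKB, HMMR and NUSAP1, 1 OE library of BIRC5 lies above all NC libraries, and NC 1 of FOXM1 lies at 16.2 FPKM.

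OE and NC values overlapped in all 4 spindle checkpoint genes. BUB1, a kinetochore kinase that recruits other checkpoint proteins, had 6.27, 5.88 and 7.46 FPKM in OE cells and 6.59, 6.43 and 5.87 FPKM in NC cells. BUB1B encodes BUBR1, a subunit of the mitotic checkpoint complex that inhibits the APC/C, and had 5.84, 5.85 and 5.94 FPKM in OE cells and 5.77, 7.13 and 5.59 FPKM in NC cells. The OE libraries of BUB1B were nearly equal while NC 2 was high. MAD2L1 encodes MAD2, which binds CDC20, and was the lowest of the 30 genes, with 2.02, 2.40 and 1.96 FPKM in OE cells and 1.86, 2.63 and 2.13 FPKM in NC cells. TTK encodes MPS1, the kinase at the head of the checkpoint, and had 4.13, 4.55 and 4.81 FPKM in OE cells and 4.11, 5.09 and 3.76 FPKM in NC cells. NC 2 was the highest of the 6 libraries for BUB1B, MAD2L1 and TTK. The log2 fold changes of the 4 genes lay between -0.05 and 0.05.

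CDC20 and UBE2C act on the other side of the checkpoint, CDC20 as the activator that brings substrates to the APC/C and UBE2C as the E2 enzyme that starts their ubiquitin chains. Both were among the 6 highest of the 30 genes. CDC20 had 21.5, 24.2 and 24.5 FPKM in OE cells and 23.4, 21.1 and 21.5 FPKM in NC cells. UBE2C had 25.0, 23.6 and 24.5 FPKM in OE cells and 22.1, 21.6 and 25.2 FPKM in NC cells. For each of them at least 1 NC library lay inside or above the OE values, and the log2 fold changes were 0.09 for CDC20 and 0.08 for UBE2C. When each library was left out, they lay between 0.0542 (without OE 3) and 0.143 (without OE 1) for CDC20, and between 0.0415 (without NC 2) and 0.148 (without NC 3, unadjusted p = 0.0456 from limma) for UBE2C. The Ballgown-style model gave 0.171 for CDC20 (unadjusted p = 0.0443) and 0.046 for UBE2C.

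Of the 5 centromere and kinetochore genes, 4 had negative fold changes, none with an unadjusted p under 0.05. CENPA, the histone H3 variant that marks centromeres, had 2.57, 2.56 and 2.24 FPKM in OE cells, against 2.97, 3.78 and 2.56 FPKM in NC cells. NC 3 lay within the OE values and NC 2 well above them. Its log2 fold change was -0.24 (standard error 0.12, unadjusted p = 0.0848 from limma), and it was -0.33 (unadjusted p = 0.0238) without NC 3 and -0.12 (unadjusted p = 0.222) without NC 2. CENPA shares 16943 bases of its annotated span on the same strand with SLC35F6, another listed gene, so their reads may not be fully separable.

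CENPE, a kinetochore motor of the kinesin family that moves chromosomes to the spindle equator, had 3.39, 3.53 and 4.21 FPKM in OE cells and 3.86, 3.72 and 3.58 FPKM in NC cells. CENPF, a large protein of the outer kinetochore in mitosis, had 10.3, 11.4 and 12.3 FPKM in OE cells and 12.2, 11.5 and 10.6 FPKM in NC cells. In both, OE 3 was the highest library and OE 1 the lowest, and the fold changes were -0.01 on the log2 scale. NDC80 and NUF2 pair in the complex that holds microtubules at the kinetochore. NDC80 had 10.4, 12.5 and 12.1 FPKM in OE cells and 9.50, 12.0 and 10.8 FPKM in NC cells. NUF2 had 2.88, 2.95 and 2.79 FPKM in OE cells and 3.03, 3.34 and 2.87 FPKM in NC cells. The ratio of NDC80 to NUF2 was 4.07 ± 0.406 in OE cells and 3.50 ± 0.334 in NC cells (SD, n = 3 each), with overlapping values. The partners of this complex thus differed in level by more than the groups did.

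The kinesins were read by their part in the spindle. KIF11 encodes Eg5, which pushes the spindle poles apart, and had 6.36, 7.19 and 7.76 FPKM in OE cells and 7.19, 7.40 and 6.54 FPKM in NC cells. KIF20A, a motor of the central spindle and of cytokinesis, had 8.51, 9.86 and 10.2 FPKM in OE cells and 9.43, 8.06 and 7.91 FPKM in NC cells. In KIF20A, OE 2 and OE 3 lay above all NC libraries and OE 1 below NC 1, with a log2 fold change of 0.15 (unadjusted p = 0.147 from limma). It was 0.226 without NC 1 (unadjusted p = 0.0447 from limma) and 0.286 with the Ballgown-style model (unadjusted p = 0.0114, adjusted p = 0.474). KIF23 encodes MKLP1, a subunit of centralspindlin, and had 5.31, 5.58 and 7.49 FPKM in OE cells and 6.30, 5.59 and 4.98 FPKM in NC cells. OE 3 was the highest library for all 3 kinesins. KIF20A overlaps CDC23 by 68 bases and BRD8 by 268 bases, both on the opposite strand.

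The spindle assembly genes held both the highest level and the clearest lower value of the 30. TPX2, which activates AURKA and nucleates microtubules near chromosomes, had 34.2, 36.6 and 39.8 FPKM in OE cells and 36.5, 35.3 and 31.5 FPKM in NC cells. Its values overlapped between the groups, and its level stood at the 91.6th percentile of the genes tested. NUSAP1, which bundles and anchors spindle microtubules, had 16.4, 16.8 and 17.4 FPKM in OE cells, against 14.1, 16.2 and 15.8 FPKM in NC cells. The groups did not overlap, though OE 1 and NC 2 were close, and limma gave a log2 fold change of 0.13 (standard error 0.07, unadjusted p = 0.0931). The fold change was 0.073 (unadjusted p = 0.187 from limma) without NC 1 and 0.077 (unadjusted p = 0.354) with the Ballgown-style model. In GENCODE 44 its span is shared on the same strand by another coding locus, as it is for BUB1B, CENPA and PRC1 (4 of the 30 genes). ASPM, a protein of spindle poles, had 5.63, 6.03 and 7.16 FPKM in OE cells and 6.18, 5.91 and 5.33 FPKM in NC cells. DLGAP5 encodes HURP, which stabilises kinetochore fibres, and had 15.0, 14.7 and 15.9 FPKM in OE cells and 16.0, 16.3 and 13.6 FPKM in NC cells. These last genes overlapped between the groups.

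HMMR (ENSG00000072571.19_3, chr5:162887209-162918951 in GRCh37, plus strand) had 11.3, 12.4 and 13.4 FPKM in OE cells, against 15.6, 15.0 and 14.7 FPKM in NC cells. The highest OE library lay below the lowest NC library. The means were 12.4 ± 1.07 FPKM in OE cells and 15.1 ± 0.453 FPKM in NC cells (SD, n = 3 each). By limma, the log2 fold change was -0.27 (standard error 0.07, 95% confidence interval -0.44 to -0.10, unadjusted p = 0.0077, adjusted p = 0.9996), which ranked 61st by p among all genes tested. Without NC 1 it was -0.25 (unadjusted p = 0.023 from limma). HMMR and AURKB therefore differed in opposite directions, as single genes of a list whose other members showed no difference past an unadjusted p of 0.05. HMMR overlaps the non-coding HMMR-AS1 on the opposite strand by 8881 bases, and no source used here gives the strand setting of the counting.

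PRC1, which bundles the antiparallel microtubules of the central spindle, had 5.74, 6.31 and 6.18 FPKM in OE cells and 6.28, 5.74 and 5.69 FPKM in NC cells. ANLN, an actin-binding scaffold of the contractile ring, was the second highest of the 30 genes, with 24.2, 24.0 and 26.0 FPKM in OE cells and 24.3, 25.6 and 22.3 FPKM in NC cells. Both had a log2 fold change of 0.04 and overlapping values. TOP2A, the topoisomerase that untangles sister chromatids, had 22.8, 24.5 and 25.9 FPKM in OE cells and 23.3, 25.5 and 22.3 FPKM in NC cells. MKI67 encodes Ki-67, a protein of the chromosome surface used as a proliferation marker, and had 9.48, 11.2 and 10.5 FPKM in OE cells and 11.5, 10.3 and 9.02 FPKM in NC cells. NC 3 was the lowest library for both TOP2A and MKI67, and their fold changes were 0.04 and 0.02 on the log2 scale.

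**Figure D3:**
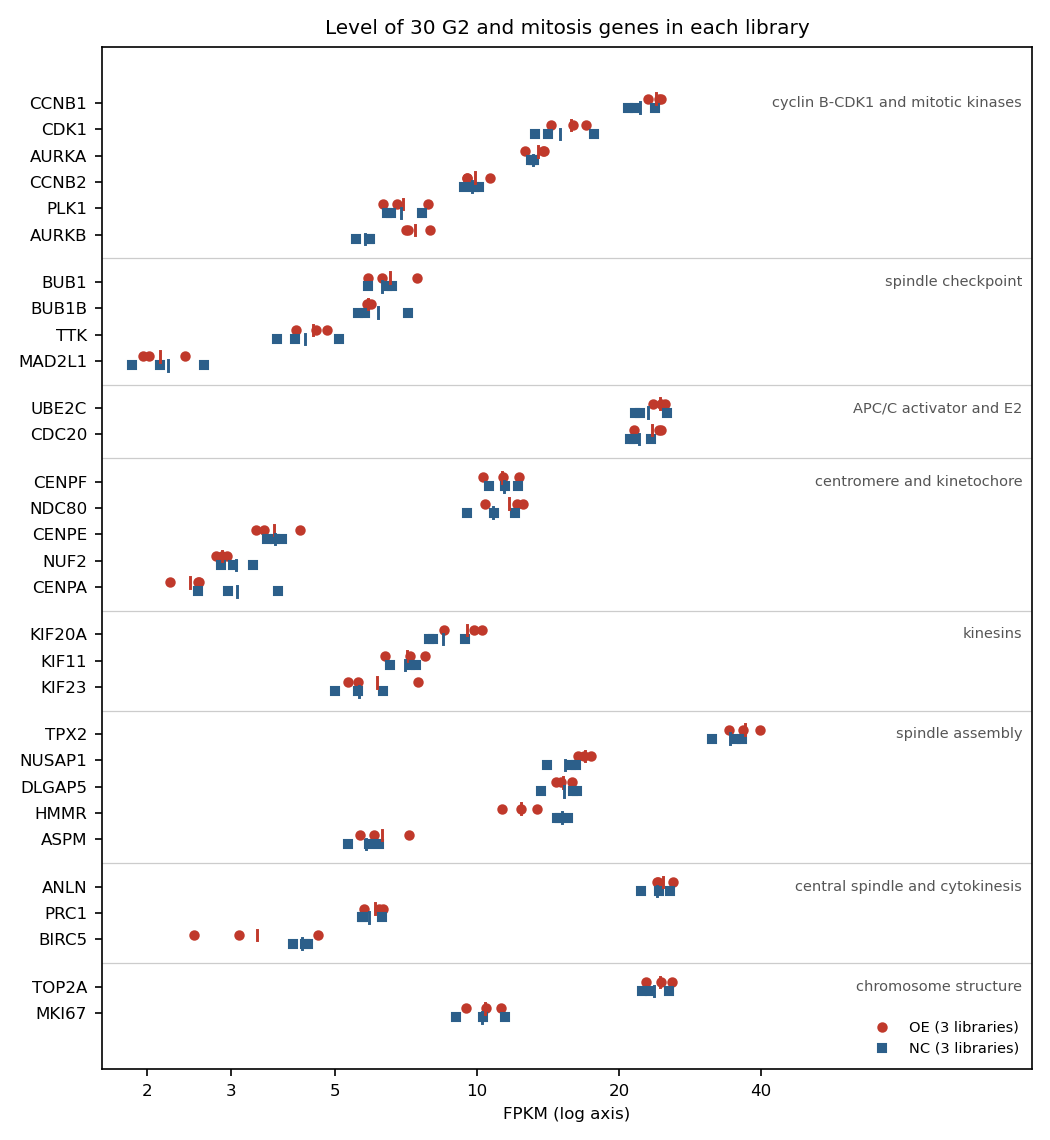
FPKM of the 30 genes on a log axis in each OE library (red circles) and NC library (blue squares), with the group means as short bars, ordered by level within each role. The genes run between MAD2L1, near 2 FPKM, and TPX2, between 31.5 and 39.8 FPKM, and the OE and NC symbols of most genes overlap.

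Genes differed in level far more than libraries did, since the highest library of a gene was 1.10 to 1.83 times its lowest. TPX2 stood clear above all others, since its lowest library (31.5 FPKM) exceeded the highest library of any other member. ANLN, TOP2A, UBE2C, CCNB1 and CDC20 followed between 20.9 and 26.0 FPKM, and these 5 neighbours did not differ beyond the spread of their libraries. At the low end stood CENPA and MAD2L1, whose values overlapped between 2.24 and 2.63 FPKM. The 2 B-type cyclins, alternative partners of CDK1, differed in level, with a CCNB1 to CCNB2 ratio of 2.43 ± 0.151 in OE cells and 2.26 ± 0.0938 in NC cells (SD, n = 3 each).

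The libraries of a group differed together across these genes, more than the groups did. OE 3 was the highest of the 6 libraries for 14 of the 30 genes, against 15.0% of all genes tested, and NC 3 was the lowest for 13, against 17.2% of all genes. OE 3 exceeded OE 1 in 25 of the 30 genes, with a median difference of 0.14 on the log2 scale, whereas 52.4% of all genes were higher in OE 3. Within NC cells, NC 3 was below NC 2 in 27 of the 30 genes, with a median difference of -0.13. The median deviations from the 6-library mean were -0.07, 0.01 and 0.11 in OE libraries and 0.03, 0.02 and -0.09 in NC libraries. Each group therefore held a library where these genes were low, OE 1 and NC 3, and the spread within groups exceeded the median difference between them. These genes share the same libraries, so the counts describe 6 libraries and not 30 independent observations.

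**Figure D4:**
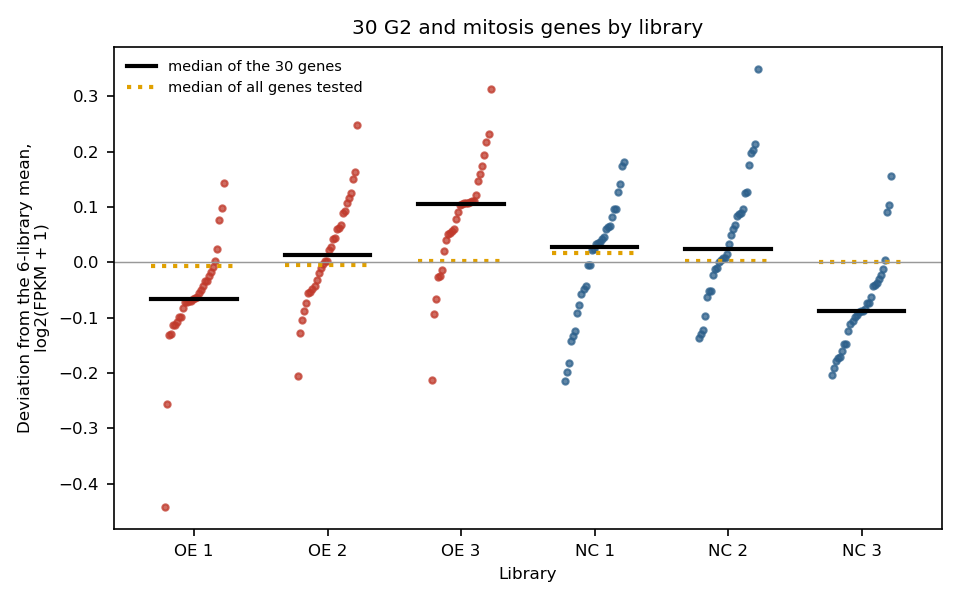
Deviation of each of the 30 genes (points) from its own 6-library mean, in log2(FPKM + 1), in the 3 OE libraries (red) and the 3 NC libraries (blue), with the median of the 30 genes (black) and of all genes tested (dotted). The medians are -0.07, 0.01 and 0.11 in OE 1 to OE 3 and 0.03, 0.02 and -0.09 in NC 1 to NC 3, while those of all genes stay near 0.

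Genes outside the 30 were examined in the same way. Of 131 further G2 and mitosis genes (the G2 to M switch, MuvB and its partners, APC/C subunits, condensins, cohesin, kinetochore, centrosome and cytokinesis genes), 129 were tested and 0 were called by limma at an adjusted p under 0.05. At an unadjusted p under 0.05, 1 was higher, HJURP, and 1 was lower, CENPU, where 1.63% of all genes were higher and 1.98% were lower. These counts depended on the libraries, with 1 to 6 higher (4 without OE 1, 6 without NC 2) and 0 to 2 lower when each library was left out. The Ballgown-style model had 1 higher and 3 lower. The fold change was positive in 71 and negative in 58, with a median of 0.01, which was -0.00894 without OE 3 and -0.00734 without NC 3. The 3 OE values lay above all 3 NC values in 2 of the 129 and below them in 2. Of all genes tested, 3.58% lay above and 5.18% lay below. OE 3 was the highest library for 41 of the 129, and NC 3 was the lowest for 36 and OE 1 for 33. Their summed level was 1206 ± 32.2 FPKM in OE cells and 1205 ± 28.5 FPKM in NC cells (SD, n = 3 each).

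HJURP, the chaperone that loads CENPA at centromeres, had 8.66, 9.35 and 9.54 FPKM in OE cells, against 7.75, 8.53 and 7.93 FPKM in NC cells. CENPU, an inner kinetochore protein, had 2.97, 3.22 and 3.42 FPKM in OE cells, against 4.04, 3.75 and 3.56 FPKM in NC cells. Neither gene overlapped between the groups, and limma gave log2 fold changes of 0.17 (unadjusted p = 0.0359) for HJURP and -0.19 (unadjusted p = 0.0357) for CENPU, both with an adjusted p of 0.9996. HJURP was thus higher where CENPA, its client, had lower values that did not pass the same threshold.

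FOXM1 and MYBL2 were examined as regulators known to bind promoters of this kind, and CCNA2 as a cyclin gene of the G2 to M switch. FOXM1, the transcription factor of G2 genes, had 7.99, 8.26 and 8.23 FPKM in OE cells and 16.2, 8.04 and 6.86 FPKM in NC cells. NC 1 was far above every other library, and it was also the library farthest out on the first principal component. The log2 fold change was -0.22 (standard error 0.28) with it and 0.12 without it. MYBL2, which encodes B-MYB, had 22.9, 24.8 and 25.4 FPKM in OE cells and 25.0, 23.9 and 21.2 FPKM in NC cells, with a log2 fold change of 0.06. CCNA2, encoding the cyclin A of S phase and G2, had 14.7, 13.7 and 14.6 FPKM in OE cells and 13.8, 17.8 and 15.1 FPKM in NC cells, with a log2 fold change of -0.10 that was -0.00735 without NC 2 and -0.183 without NC 1. In NC 1 the 30 genes had a median deviation of 0.03, and NC 1 was the highest library for 2 of them, HMMR and MKI67. Any link between the FOXM1 value of NC 1 and these genes was not tested.

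S phase genes were set beside the mitotic ones as the nearest phase of the cycle. Of 50 genes, 47 were tested and 0 were called by limma, while 2 were higher and 2 were lower by unadjusted p, where 1.63% of all genes were higher and 1.98% were lower. Leaving out each library gave 1 to 5 higher (1 without OE 1, 5 without NC 1, 4 without NC 2) and 0 to 2 lower (0 without OE 1), and the Ballgown-style model had 4 higher and 0 lower. The fold change was positive in 34 and negative in 13, with a median of 0.05, and the summed level was 322 ± 9.32 FPKM in OE cells and 307 ± 12.7 FPKM in NC cells (SD, n = 3 each). The 3 OE values lay above all 3 NC values in 3 of the 47 and below them in 2. Of all genes tested, 3.58% lay above and 5.18% lay below. OE 3 was the highest library for 17 of the 47 and NC 3 the lowest for 21, so the same libraries stood at the ends. The median was 0.0105 without NC 3 and 0.0874 without NC 1, the lowest and highest values when each library was left out.

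TK1, encoding the thymidine kinase of the salvage pathway, had 16.1, 16.6 and 17.2 FPKM in OE cells, against 12.7, 13.2 and 15.3 FPKM in NC cells. E2F1, a transcription factor of S phase entry, had 3.60, 3.40 and 3.26 FPKM in OE cells, against 2.87, 2.90 and 2.90 FPKM in NC cells. Both lay higher in every OE library, with log2 fold changes of 0.26 (unadjusted p = 0.0134 from limma) and 0.19 (unadjusted p = 0.0171 from limma). SLBP, which binds the stem-loop of histone mRNAs, had 13.1, 13.4 and 14.4 FPKM in OE cells, against 15.5, 18.0 and 15.4 FPKM in NC cells. UHRF1, which maintains DNA methylation at replication, had 2.61, 3.03 and 2.85 FPKM in OE cells, against 3.88, 3.03 and 3.96 FPKM in NC cells. Both lay lower in every OE library, UHRF1 only narrowly below NC 2, with log2 fold changes of -0.24 (unadjusted p = 0.0186 from limma) and -0.27 (unadjusted p = 0.0327 from limma).

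S phase promoters differed from the mitotic ones in the CHR. Its letters lay in 3 of 42 matched S phase windows (7.14%), and in 37 of 114 windows (32.5%) of the further G2 and mitosis genes, against 15 of 25 (60%) of the 30 genes. CCAAT boxes were more evenly shared, in 59.5% of S phase windows, 64% of the further mitotic windows and 80% of the 30 genes. These shares come from the sequence alone, and no test was made of them.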

How the data were processed

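RNA-seq of 3 OE and 3 NC libraries was analysed from 1 table of FPKM that the authors deposited. The methods give a stranded library kit, an Illumina HiSeq sequencer, mapping to GRCh37 with HISAT2, and FPKM from Ballgown. The submitters' processing notes name HISAT2 2.0.5 and featureCounts 1.5.0-p3. In the values, no listed gene had a mean under 0.5 FPKM in both groups. Groups were taken from the sample labels.

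From these values, log2(FPKM + 1) was compared with limma 3.58.1 in R 4.3.3, with a mean-variance trend, for the 11042 genes that averaged 1 FPKM or more, and p-values were adjusted over all of them by the Benjamini-Hochberg method. An exact permutation test of 3 against 3 libraries cannot go below p = 0.1 and was not used. The procedure was tested on simulated data. The 30 genes and the comparison lists were chosen with earlier results of these data known. The text names all 30 genes, FOXM1, MYBL2 and CCNA2, and up to 6 genes of each comparison list with an unadjusted p under 0.05. Other settings tried were a filter at 5 FPKM or none, a pseudocount of 0.1, median-of-ratios rescaling, a Ballgown-style model with a library term, the replicate number as a block, and leaving out each library. Gene overlaps were read from the table and from GENCODE 44 on GRCh37, and promoters from RefSeq on GRCh38.p14, with no coordinates carried between builds. The sequencing of plasma tRFs was not analysed here.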

Additional observations from a re-analysis of the deposited data

How the results depend on the processing

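None of the 30 genes passed an adjusted p of 0.05 under any of the 12 alternatives, the lowest adjusted p being 0.474 for KIF20A (Ballgown-style model). The number of all genes called was 7, and it was 0 with the Ballgown-style model, 1 with the replicate number as a block and 1 to 18 when each library was left out (1 without NC 3 and 18 without NC 1). Same-numbered OE and NC libraries had correlations of deviations of -0.0134, 0.0106 and -0.0054. These values show no strong shared shift over all genes. They cannot tell whether the samples were paired by culture or day, which the labels do not say. The block is given only here. Of the 30 genes, 2 had an unadjusted p under 0.05, and 2 to 4 when each library was left out, with 4 without NC 3. The median log2 fold change of the 30 genes lay between -0.000342 and 0.0718 when each library was left out and between 0.0384 and 0.0678 under the other alternatives. AURKB kept its direction and an unadjusted p under 0.05 in 12 of 12 alternatives (log2 fold change 0.257 to 0.346), and HMMR in 11 of 12 (-0.328 to -0.202, highest unadjusted p 0.0598, Ballgown-style model). The sign changed in at least 1 alternative for 15 of the 30 genes, none of them called. With the Ballgown-style model it did so for CDK1 (-0.0363), CENPE (0.0655), CENPF (0.0847), DLGAP5 (0.0493) and, outside the 30 genes, FOXM1 (0.201), and with rescaling for CENPE (0.00314) and DLGAP5 (0.0074). The cause was not tested. When each library was left out, the log2 fold change ran between -0.0366 and 0.0391 for CCNB2, -0.00457 and 0.193 for CDK1, -0.0616 and 0.0832 for PLK1, -0.0441 and 0.105 for BUB1, -0.109 and 0.0416 for BUB1B, -0.112 and 0.0606 for MAD2L1, and -0.0234 and 0.154 for TTK. It ran between -0.0811 and 0.0418 for CENPE, -0.0706 and 0.0472 for CENPF, -0.05 and 0.0758 for KIF11, -0.0348 and 0.179 for KIF23, -0.0789 and 0.0398 for DLGAP5, -0.0105 and 0.0857 for ANLN, -0.00235 and 0.0916 for TOP2A, -0.0613 and 0.0959 for MKI67, -0.447 and 0.119 for FOXM1, and -0.0058 and 0.108 for MYBL2. With the replicate number as a block, 0 of the further G2 and mitosis genes were higher at an unadjusted p under 0.05, and the median log2 fold change of the S phase genes lay between 0.0105 and 0.0874 when each library was left out. With a filter at 5 FPKM, 24 of the 30 genes were tested. The table gives no counts, so what depth limits is unknown.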
